A study of Drosophila melanogaster with 2 samples.

Results

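In the ChIP-seq map of the CG7745 protein in whole Drosophila melanogaster embryos, 4891 of the 30000 pooled peaks were weaker peaks, far from gene starts, that each replicate also called on its own. They were selected on measured values in 4 steps. A peak had to lie in the list called on both replicates pooled but outside the reproducible set, which holds the 1874 peaks that passed the irreproducible discovery rate (IDR). Its summit had to lie more than 500 bp from the transcription start site (TSS) of every protein-coding gene, in an intron of such a gene or in intergenic DNA. A summit of each single-replicate list had to lie within 100 bp of it, and only the 6 main chromosome arms were used. Of the 16851 weaker distal peaks, 4891 met the replicate condition and are the members described here, 3328 of them in introns and 1563 in intergenic DNA. The other 11960 weaker distal peaks and the 1043 distal peaks of the IDR set served for comparison.

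Both samples came from 1 transgenic fly line with an insertion targeting CG7745 that joins green fluorescent protein (GFP) to the C-terminus of the protein. They are biological replicates 2 and 3 of embryos aged 0 to 12 hours, form 1 group (n = 2), and differ in no label of genotype, stage or treatment. Chromatin was sonicated and recovered with an antibody against GFP per the labels' description, although their antibody field names CG7745, and both libraries were called against the same control alignment. The embryo was used whole, so many cell types were mixed, and binding in fewer cells cannot be told apart from less binding per cell. No read counts were given, so the depth is unknown, and the exact 95% intervals printed below cover the counting of peaks only.

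DNA far from gene starts in the fly holds enhancers, stretches where sequence-specific transcription factors bind and raise transcription from a promoter at a distance. In the embryo many enhancers lie in the first introns of developmental genes or in the intergenic DNA around them. A weak ChIP-seq peak in such DNA can mark direct binding, binding through another protein, or chromatin that is easily recovered, and peak lists alone do not separate these.

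The DNA under the members is shown first for 3 of the strongest by pooled signal, the intronic one at HGTX and the intergenic ones nearest to Gnf1 and comm2. Each is the summit base with 50 bp to each side, on the forward strand of Release 6 of the genome (the build dm6), from RefSeq. Capitals mark matches to the 5 short consensus sequences that the comparison with the other weaker distal peaks called: TGTTTAC (forkhead proteins), TAATTA (homeodomain proteins), GAGAG (the GAGA factor Trl), GAGAGAGA (a longer GA repeat, bound by CLAMP and Trl) and CACACACA (a CA repeat), each on either strand. Every GAGAGAGA match holds GAGAG matches.
HGTX intron, chr3L:14591204-14591304: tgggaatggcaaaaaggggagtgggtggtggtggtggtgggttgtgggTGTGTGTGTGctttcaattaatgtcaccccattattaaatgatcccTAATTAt
nearest Gnf1, chr3R:4903706-4903806: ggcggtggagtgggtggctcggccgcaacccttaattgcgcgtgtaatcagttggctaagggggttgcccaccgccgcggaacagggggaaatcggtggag
nearest comm2, chr3L:15704872-15704972: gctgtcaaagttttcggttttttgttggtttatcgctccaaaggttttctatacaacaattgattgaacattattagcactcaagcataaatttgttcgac
The window in HGTX, which encodes an NK-class homeodomain protein, holds 2 overlapping CA repeat matches and 1 homeodomain match, and the other two windows hold none of the 5 sequences.

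Further strong members that hold a consensus, not always the strongest that do, show how the matches sit relative to the summit, the middle base of each window.
Glut4EF intron, forkhead, chr3R:9881557-9881657: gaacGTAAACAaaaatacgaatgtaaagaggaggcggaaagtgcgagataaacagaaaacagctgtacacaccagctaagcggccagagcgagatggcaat
CG42747 intron, forkhead, chr3L:6467702-6467802: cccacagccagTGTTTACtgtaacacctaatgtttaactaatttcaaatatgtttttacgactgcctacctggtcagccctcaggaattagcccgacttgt
rdx intron, homeodomain, chr3R:13985066-13985166: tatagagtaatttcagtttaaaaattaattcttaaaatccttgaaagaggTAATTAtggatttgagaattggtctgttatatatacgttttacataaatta
nearest CheA75a, homeodomain, chr3L:18227790-18227890: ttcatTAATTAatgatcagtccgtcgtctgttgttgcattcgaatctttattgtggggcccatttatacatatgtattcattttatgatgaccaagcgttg
cact intron, GAGAG, chr2L:16317979-16318079: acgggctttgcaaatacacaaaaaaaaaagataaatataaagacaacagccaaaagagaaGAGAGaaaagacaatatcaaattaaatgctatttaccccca
fz2 intron, GA repeat and CA repeat, chr3L:19168757-19168857: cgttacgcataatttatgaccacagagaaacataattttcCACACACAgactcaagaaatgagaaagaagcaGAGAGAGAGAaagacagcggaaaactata
jar intron, CA repeat, chr3R:24270205-24270305: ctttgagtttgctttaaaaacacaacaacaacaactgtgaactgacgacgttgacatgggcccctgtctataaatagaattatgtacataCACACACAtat
CG33298 intron, CA repeat and homeodomain, chr2L:9510397-9510497: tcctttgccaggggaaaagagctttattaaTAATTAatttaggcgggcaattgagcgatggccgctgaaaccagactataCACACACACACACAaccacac
In the rdx window the homeodomain match begins at the summit, whereas the matches of the Glut4EF and CheA75a windows lie near the left edge.

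The values that chose the members are given as a description. Signal is a value that the peak caller gave each peak relative to the control, and it is not on 1 scale across the 3 lists. In the pooled list the members' median signal was 62.3 (range 28.6 to 121.7), and their median rank was 7801 (1875 to 29979). In replicate 2 the matched peaks had signals from 13.7 to 152.7 (median 25.4) and a median rank of 10785, and in replicate 3 from 18.9 to 109.4 (median 34.9) and a median rank of 11045. Intronic and intergenic members had nearly the same pooled median, 62.0 and 63.2.

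The replicates ranked the members differently. Across the 4891 members the signals of replicates 2 and 3 had a Spearman rank correlation of 0.30 and a Pearson correlation of 0.30 on the log2 scale, a description over peaks that share a control and were selected by signal. Within the first 5000 of both single-replicate lists ranked 388 members (7.93%), within the first 10000 ranked 1336 (27.3%), and within the first 1874 ranked 1. These counts depend on the selection too, since the rule left out the 1874 IDR peaks, each with a higher pooled signal than any member. The member with the highest signal in replicate 2 lay in an intron shared by chif and Hyls1. Its signal was 87.0 in the pooled list, 152.7 in replicate 2 (rank 151) and 80.0 in replicate 3 (rank 1820), which makes it the 1 member within 1874 in both. The member with the highest signal in replicate 3 was intergenic and nearest to PAN3, with 120.8 in the pooled list, 45.1 in replicate 2 (rank 2942) and 109.4 in replicate 3 (rank 890). A member near lgs, which encodes the Wnt adaptor Legless, had 99.97 in replicate 3 (rank 1109) but 14.2 in replicate 2 (rank 28572), close to the end of that list.

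**Figure D1:**
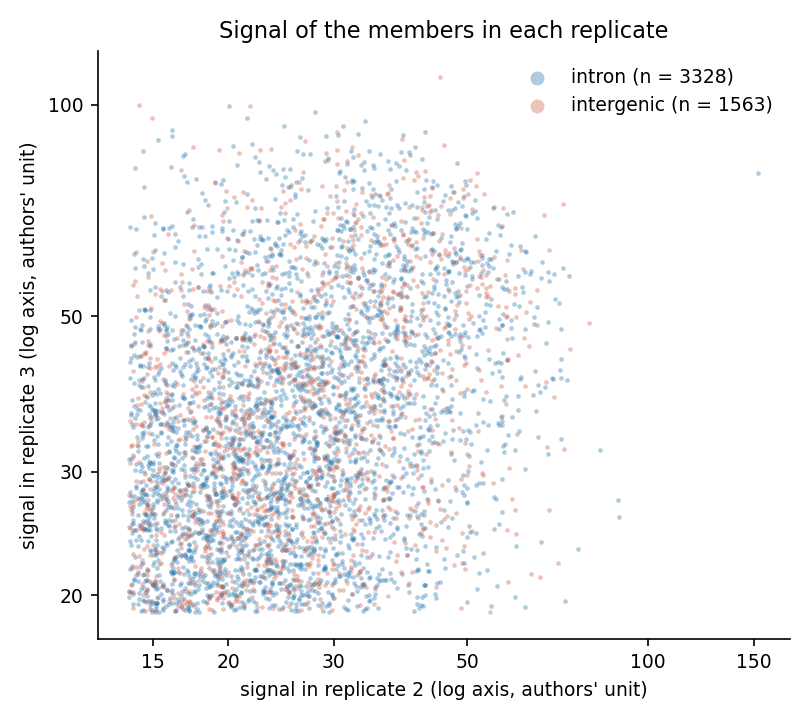
Signal of each member's matched peak in replicate 2 (x) and replicate 3 (y), both log axes in the authors' unit, with intronic members in blue (n = 3328) and intergenic members in red (n = 1563). The points fill a broad cloud above the list floors of 13.7 and 18.9, and the single point at 152.7 on the x axis is the chif member.

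How often a weaker distal peak was a member followed its pooled rank. Between ranks 1875 and 5000, 77.3% of the weaker distal peaks were members (1361 of 1761), 33.3% in the 5000 ranks after 10000 (1013 of 3038) and 2.82% from rank 25001 on (83 of 2944). Of the 11960 others, 3747 had a summit within 100 bp in replicate 2 only, 5717 in replicate 3 only and 2496 in neither. The matched summits lay a median of 18 bp away in replicate 2 and 14 bp in replicate 3, and 2949 members (60.3%) had both within 50 bp. At the edges of the rule, the strongest member had a pooled signal of 121.692 and the weakest IDR peak 121.739, and the closest member to a TSS lay 503 bp away. In 390 members the farther replicate summit was 91 to 100 bp away, and in 323 others it lay at most 10 bp beyond the limit.

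**Figure D2:**
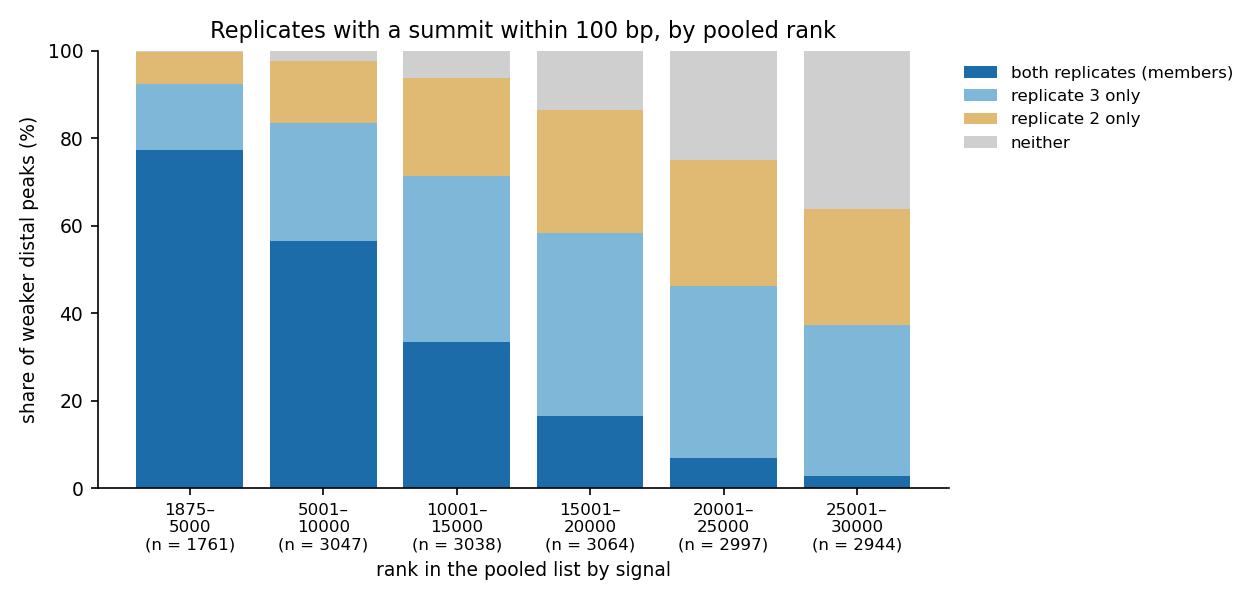
Share of weaker distal peaks (y, percent) with a summit within 100 bp in both replicates, replicate 3 only, replicate 2 only or neither, by rank in the pooled list (x). The share found in both falls from 77.3% in the first bin to 2.82% in the last, while the share found in neither reaches 36.1%.

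By the rule, all members lay more than 500 bp from a TSS, and their distances were much like those of the comparison peaks. The members' median distance to the nearest protein-coding TSS was 4055 bp, 586 (12.0%) lay within 1000 bp of one and 383 (7.83%) more than 20000 bp. For the other weaker distal peaks the median was 4358.5 bp, with 11.5% within 1000 bp. For IDR distal peaks it was 4061 bp, with 14.2%. Per length of DNA, introns held 63.2 members per Mb (3328 in 52.7 Mb) and intergenic DNA 41.9 (1563 in 37.3 Mb). The same densities were not computed for the comparison peaks. Among intronic members 70.6% lay downstream of the nearest TSS, and among intergenic members 37.4% did. Members were often neighbours: 1012 (20.7%) had another member within 1000 bp and 3283 (67.1%) within 5000 bp. This was similar around the other weaker distal peaks, of which 20.7% had a member within 1000 bp and 63.5% within 5000 bp, and the shares were 28.5% and 77.2% for IDR distal peaks. An IDR summit lay within 5000 bp of 33.8% of members (interval 32.5 to 35.2) and of 28.1% of the others (27.3 to 28.9). This difference was not tested and not stratified on pooled rank, whose median was 7801 in members and 19400.5 in the others. Annotated transposable elements held 9 member summits (0.184%). The GC content of the windows had a median of 41.6% in members and in the others and 38.6% in IDR distal peaks.

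Members were in introns about as often as the other weaker distal peaks, 68.0% (interval 66.7 to 69.3) against 66.6% (65.7 to 67.4), an odds ratio of 1.07 with p = 0.0657 by Fisher's exact test. Among intronic peaks, 64.0% of members lay in the first intron of a transcript against 60.9% of the others (odds ratio 1.14, two-sided Fisher's exact test p = 0.00238), and 70.4% of IDR distal peaks did. This difference did not hold at equal pooled rank: stratified over 10 bins of rank, the odds ratio was 0.92. With rank so treated the intron share was higher in members (odds ratio 1.12, Mantel-Haenszel p = 0.0124, against 0.0657 by Fisher's exact test).

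By chromosome arm, members and the other weaker distal peaks were spread alike as far as the test reached. Arm 3L held 24.7% of members and 24.7% of the others, 3R 23.2% and 23.6%, 2L 20.1% and 19.1%, 2R 17.8% and 17.8%, X 13.6% and 14.2%, and arm 4 held 25 and 71 peaks. Fisher's exact test called 0 of 6 arms (0.0%) after Benjamini-Hochberg adjustment and 0 at an unadjusted p under 0.05. Stratified on pooled rank, X alone was called and was higher in members (odds ratio 1.18, adjusted p = 0.0463), and within 200 bp X alone was called and was lower (odds ratio 0.85, adjusted p = 0.00182 by Fisher's exact test), so the direction on X depended on the processing. Against the IDR distal peaks, a test added after the shares were seen, members had the higher share on X, 13.6% against 8.82% (1 of 6 arms, 16.7%, odds ratio 1.63, adjusted p = 8.11e-05 by Fisher's exact test). They had the lower share on 2L, 20.1% against 23.8%, and on 2R, 17.8% against 21.2% (2 of 6 arms, 33.3%, adjusted p = 0.0212 for both by Fisher's exact test).

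Members carried 5 of the 37 short consensus sequences (13.5%) more often than the other weaker distal peaks, and 0 less often. The forkhead sequence TGTTTAC, bound by winged-helix factors such as Fkh, stood in 3.91% of member windows (191, interval 3.38 to 4.49) against 2.66% of the others and 3.14% of all pooled windows (odds ratio 1.49, adjusted p = 0.00109 by Fisher's exact test). The homeodomain sequence TAATTA, shared by Antennapedia-class proteins, stood in 11.3% (555, interval 10.5 to 12.3) against 9.31% and 9.12% of all pooled windows (odds ratio 1.25, adjusted p = 0.00144 by Fisher's exact test). Of the 37 sequences, 7 had an unadjusted p under 0.05.

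The 3 repeat-like sequences were also more frequent in members. GAGAG, the core site of the GAGA factor, which opens chromatin at many fly genes, stood in 14.5% of members, 12.7% of the others and 14.2% of all pooled windows (odds ratio 1.17, adjusted p = 0.0212 by Fisher's exact test). GAGAGAGA stood in 1.51%, 0.953% and 1.30% (odds ratio 1.60, adjusted p = 0.0247 by Fisher's exact test), and CACACACA in 4.29%, 3.35% and 3.47% (odds ratio 1.29, adjusted p = 0.0269 by Fisher's exact test).

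These differences between members and others followed the pooled rank. When peaks were compared within 10 bins of pooled rank by the Mantel-Haenszel test, 0 of the 37 sequences were called. The forkhead odds ratio was then 1.05, the homeodomain one 1.12, the GA repeat one 1.12, the CA repeat one 1.02 and the GAGAG one 0.99, on the other side of 1. Between ranks 1875 and 5000 the forkhead sequence stood in 5.44% of members (interval 4.29 to 6.78) and 4.25% of the others (2.49 to 6.72), and the homeodomain one in 14.1% and 12.0%. Between ranks 5001 and 10000 the forkhead shares were 3.31% and 3.63%, and the homeodomain shares 11.2% and 9.15%. In the 10000 ranks after 10000 the forkhead shares were 3.75% and 2.84%, and the homeodomain shares 9.21% and 9.43%. From rank 20001 on they were 1.05% and 2.18% for forkhead, and 10.5% and 9.07% for homeodomain. The intervals of members and others overlapped in each bin. Called on replicate 2 alone, without replicate 3, 0 of the 37 sequences were called. Without replicate 2, 4 were: GAGAG, forkhead and CA repeat, higher in members, and the Maf half-site GCTGAC, lower in members. With both replicate summits within 50 bp, the calls were homeodomain and forkhead.

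**Figure D3:**
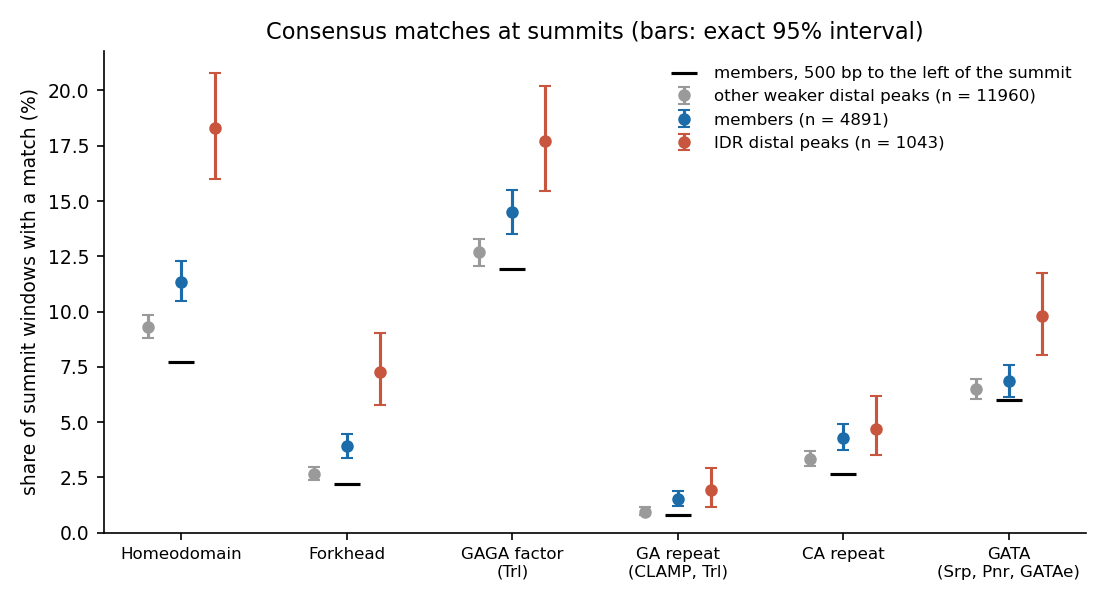
Share of summit windows that hold a match (y, percent) for 6 consensus sequences (x) in the other weaker distal peaks, the members and the IDR distal peaks, with exact 95% intervals; black dashes are the members' own windows 500 bp to the left. For each of the 6 the members' point lies between the others and the IDR distal peaks, as for forkhead with 2.66%, 3.91% and 7.29%.

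Within each member's own locus the same 5 sequences were more frequent at the summit than 500 bp to the left (5 of 37, 13.5%), by the exact binomial test of discordant pairs. The homeodomain sequence was at the summit alone in 506 members and in the flank alone in 328 (adjusted p = 2.83e-08, exact). For forkhead the counts were 186 and 102 (adjusted p = 1.57e-05, exact), for the CA repeat 201 and 120 (8.88e-05, exact), for GAGAG 616 and 490 (0.00156, exact) and for GAGAGAGA 73 and 39 (0.0125, exact). The flank to the right gave calls for the same 5. The other weaker distal peaks also had higher shares at the summit than 500 bp to the left, which was not tested. Their shares were 9.31% against 7.20% for homeodomain, 2.66% against 2.23% for forkhead and 3.35% against 2.39% for the CA repeat. For GAGAG they were 12.7% against 11.9%, and for GAGAGAGA 0.953% against 0.778%. With both replicate summits within 50 bp, homeodomain, forkhead and CA repeat passed, and GAGAG (adjusted p = 0.207) and GAGAGAGA (0.602) did not by the same exact test.

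By distance, the forkhead and homeodomain matches formed a narrow peak and the repeat matches a wide one. Forkhead matches stood in 3.91% of members at the summit, in 2.31% 100 bp to the left and in 2.70% 100 bp to the right. Homeodomain matches fell from 11.3% to 9.26% and 8.38% at the same distances. GAGAG stood in 14.5% at the summit, 14.8% 100 bp to the left and 15.3% 100 bp to the right, with overlapping intervals.

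**Figure D4:**
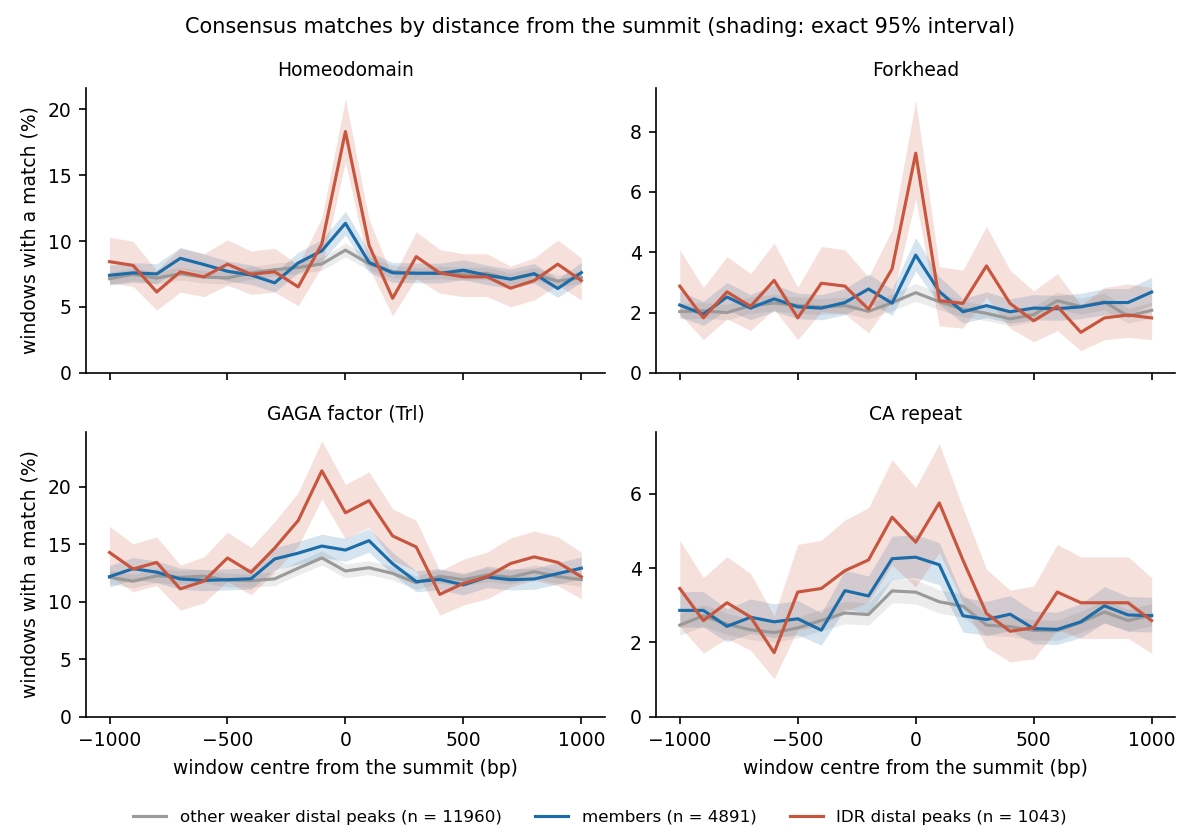
Share of windows with a match (y, percent) by the distance of the window from the summit (x, bp) for 4 consensus sequences, in members (blue), the other weaker distal peaks (grey) and IDR distal peaks (red), with exact 95% intervals shaded. For homeodomain and forkhead the rise is limited to the windows nearest the summit, from 7.71% and 2.19% at 500 bp to the left up to 11.3% and 3.91% in members.

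Against the IDR distal peaks, 3 of the 37 sequences (8.11%) were less frequent in members and 0 more frequent, and 8 had an unadjusted p under 0.05. The homeodomain sequence stood in 11.3% of members against 18.3% (odds ratio 0.57, adjusted p = 1.37e-07 by Fisher's exact test), and the forkhead sequence in 3.91% against 7.29% (odds ratio 0.52, adjusted p = 0.000134 by Fisher's exact test). The GATA sequence AGATAA, bound by factors such as Serpent and Pannier, stood in 6.85% against 9.78% (odds ratio 0.68, adjusted p = 0.0168 by Fisher's exact test), but in 6.48% of the others. The IDR windows were lower in GC. With GC content stratified in 10 bins the homeodomain and forkhead differences passed (odds ratios 0.66 and 0.53) while the GATA one did not (odds ratio 0.78). So stratified, GAGAG and the Exd and Hox sequence TGATNNAT were called too, and 1 of the 4 calls was higher in members.

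Among the members themselves, the 2 classes of DNA differed in 2 sequences, by a test added after the shares were seen (2 of 37, 5.41%, both higher in introns). Forkhead matches stood in 4.57% of intronic members (152) and 2.50% of intergenic members (39), an odds ratio of 1.87 (adjusted p = 0.0130 by Fisher's exact test). GATA matches stood in 7.66% (255) and 5.12% (80), an odds ratio of 1.54 (adjusted p = 0.0188 by Fisher's exact test). In the other weaker distal peaks the forkhead shares were 2.88% in introns and 2.23% in intergenic DNA, and the GATA shares 6.88% and 5.68%; whether the contrast differs between members and others was not tested. The 1630 strongest members by pooled signal held the forkhead sequence in 5.34% and the homeodomain sequence in 13.9%, the next 1630 in 3.07% and 10.8%, and the 1631 weakest in 3.31% and 9.38%.

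Of all 6-mers (collapsed over strands), 4 were more frequent in members than in the others (0.192%) and 1 was less frequent (0.0481%) by Fisher's exact test, and 175 had an unadjusted p under 0.05. The higher ones were AACAAA (22.8% against 19.3%, odds ratio 1.23, adjusted p = 0.00056 by Fisher's exact test), AATTAA (21.9% against 18.5%), AAATTA (22.4% against 19.4%) and TAATTA, which is the homeodomain sequence itself. AATTAA and AAATTA each share 5 bases with TAATTA, and so can overlap it. The next 2 higher ones by p, TAAACA and AGAGAG, missed the threshold (adjusted p = 0.0517 for both by Fisher's exact test). They share letters with the forkhead and GAGA sequences. The lower one was AAGGAC (2.11% against 3.20%, odds ratio 0.65, adjusted p = 0.0375 by Fisher's exact test). Stratified on pooled rank 1 6-mer was called, CAATGG, which is in none of the 5 called consensus sequences and stood in 6.73% of members against 5.38% of the others. Without replicate 2, and likewise without replicate 3, 0 6-mers were called.

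At least 1 member belonged to 1866 of the 13945 protein-coding genes (13.4%), counting an intronic member for each gene whose intron holds it and an intergenic one for the gene with the nearest TSS. Of these, 928 held exactly 1, 278 held 5 or more and 75 held 10 or more, while 1347 held no IDR distal peak. The share rose with intron length, from 5.17% of genes with under 1 kb of intron to 57.9% of genes with 50 kb or more. Per 100 kb of intron the number was highest, 9.97, in genes with 1 to 5 kb and lowest, 4.35, in those with 50 kb or more.

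Among the 15 genes with the most members, hth, which encodes the TALE homeodomain partner of the Hox proteins, held 27 members (23 intronic), Ten-m, which encodes a transmembrane teneurin, 25, and pyd, which encodes the junction scaffold Polychaetoid, 23. The zinc finger gene jing also held 23, and olf413 21. Antp (Antennapedia, a Hox gene), RapGAP1, CG42238, bun and sick held 20 each. Tet (a dioxygenase of methylated bases), Eip75B (an ecdysone-induced nuclear receptor), sli (the axon repellent Slit) and SKIP held 19 each, and fz2 (the Wnt receptor Frizzled2) 18. Together these 15 genes accounted for 313 members. Each also held other weaker distal peaks, from 27 at sli to 84 at hth. The genes were chosen for their number of members, which by itself favours a higher ratio of members to others. Among all weaker distal peaks there were 4891 members and 11960 others. Against that ratio hth (27 and 84) and fz2 (18 and 49) were poorer in members. The rest of these genes were richer, from SKIP (19 and 46, nearly the same ratio) to pyd (23 and 30), which was not tested. The order by number is therefore not an order by how often a weaker distal peak was a member.

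Per length of intron the order was different. hth lies at 3R:10507561-10639568 (build dm6) and held 19.2 intronic members per 100 kb, and SKIP held 12.7. The gene sli, at 2R:15869495-15922118, held 43.2, and over all genes the value was 6.32. Genes chosen for many members tend to lie above the value of all genes, so this is a description and not an enrichment. The strongest member of hth had a signal of 118.9 in the pooled list, 40.1 in replicate 2 and 85.8 in replicate 3. That of sli had 90.1, 36.3 and 50.8, and that of Tet had 111.6, 14.0 and 81.2, a value in replicate 2 near the end of its list. That of pyd went the other way, with 114.2, 68.1 in replicate 2 and 31.8 in replicate 3.

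**Figure D5:**
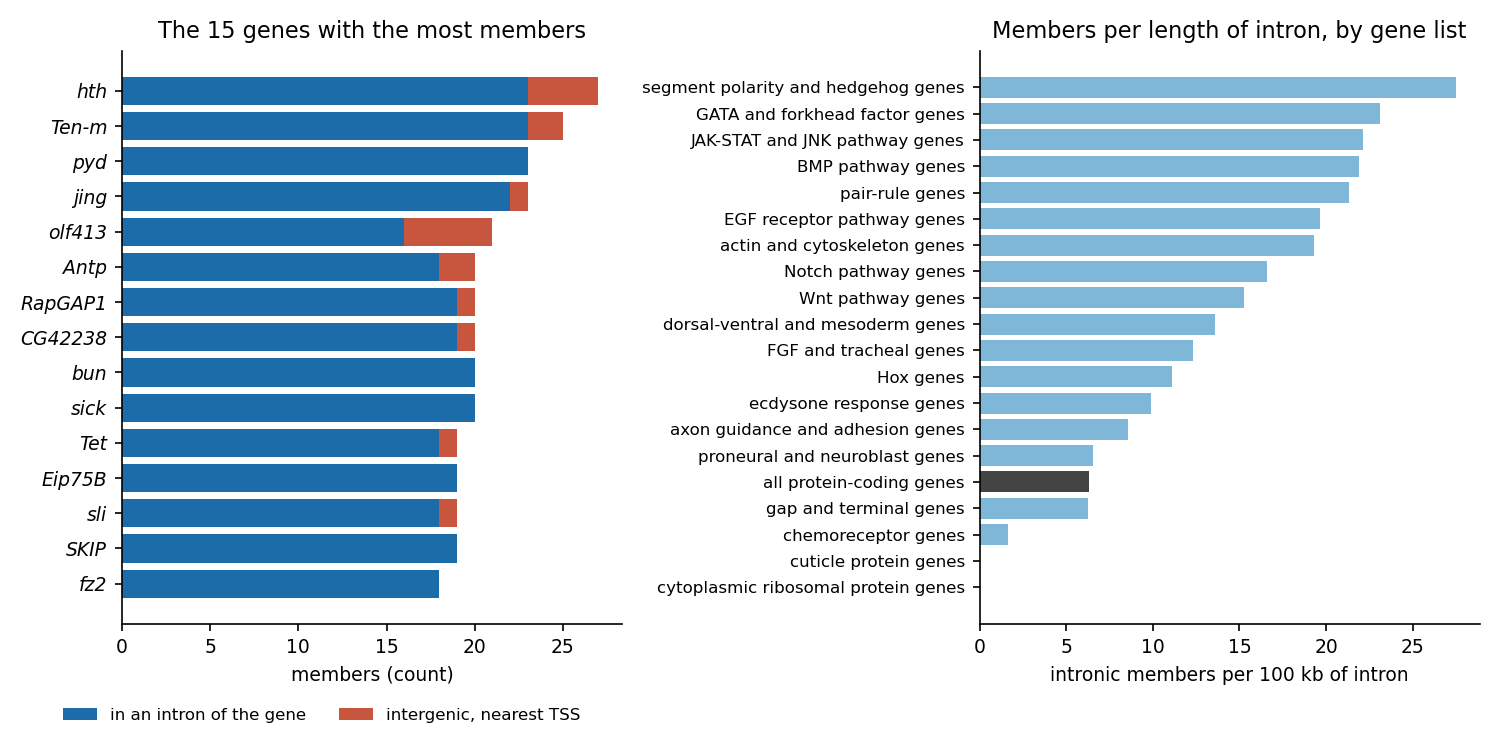
Left, number of members (x) for the 15 genes that hold the most, divided into members in an intron of the gene and intergenic members nearest to its TSS. Right, intronic members per 100 kb of intron (x) for 19 gene lists and, in dark grey, all protein-coding genes at 6.32; the segment polarity list has the highest value, 27.5, and the ribosomal protein and cuticle lists are at 0.

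In the 6 lists of signalling pathway genes, between 6 and 11 genes held a member. Of the Wnt pathway list 11 of 18 genes held a member, among them the receptors fz2 (18) and fz (16) and the feedback inhibitor nkd (13, at 35.5 per 100 kb of intron). Of the BMP list 6 of 13 did, led by the type I receptor tkv (15), the transcription factor shn (13) and the inhibitory Smad Dad (5). Of the Notch list 9 of 12 did, led by the coactivator mam (12), the receptor N itself (9) and the ubiquitin ligase neur (6). The EGF receptor list had 10 of 12, led by the ETS factor pnt (9) and the ligand vn (8), with S (Star, needed for ligand transport) at 6. In the FGF and tracheal list 10 of 12 held one, with the POU factor vvl at 11, all intergenic, and the ligands ths and bnl at 8 and 7. The JAK-STAT and JNK list had 8 of 17, led by the JNK phosphatase puc (5), Stat92E (4) and the TNF ligand egr (3). Over all genes the share was 13.4% and the median number 0. The genes of these lists have longer introns, with medians from 2.59 kb (JAK-STAT and JNK) to 15.5 kb (EGF receptor). Among all genes with 5 to 20 kb of intron the share was 47.6%, and with 20 to 50 kb it was 54.9%.

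The lists of body plan regulators are short, and their shares were not tested against each other. Of the Hox genes 7 of 8 held a member (interval 47.3 to 99.7%), with 20 at Antp, 6 at Ubx and 4 at lab. The segment polarity list had 6 of 10, where nkd, inv (7) and ptc (6) led. ptc, the Hedgehog receptor, held 5 of its 6 in 10.1 kb of intron, or 49.7 per 100 kb. The pair-rule list had 5 of 9 (opa 6, odd 3, slp2 3) and the gap and terminal list 4 of 8 (kni 3, knrl 2, cad 2). Their intervals, 21.2 to 86.3% and 15.7 to 84.3%, overlapped that of the Hox genes. Median intron length was 0.15 kb in the pair-rule list, 0.16 kb in the gap and terminal list and 26.1 kb in the Hox genes. Among all genes, 5.17% of those with under 1 kb of intron held a member, and 54.9% of those with 20 to 50 kb. The dorsal-ventral and mesoderm list had 11 of 16, led by ush (10), eya (6) and stumps (5). The GATA and forkhead factor list had 15 of 19, led by grn (9), CHES-1-like (8) and jumu (7, all in 7.48 kb of intron, or 93.6 per 100 kb). The proneural and neuroblast list had 8 of 18 (pdm2 7, SoxN 5, esg 3).

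Other lists lay above and below the 13.4% of all genes, a share that rises with intron length and was not matched to the lists by it. The ecdysone response list had 10 of 14, led by Eip75B (19), the receptor gene EcR (11) and Hr4 (9). The axon guidance and adhesion list had 16 of 25 with 133 members in all, led by Ten-m, sli and Sema1a (18). The actin and cytoskeleton list had 12 of 20, led by pyd, shot (6) and chic, the profilin gene, with 5 members in 5.57 kb of intron. Their pooled median at chic was 107.4, against 62.3 over all members, and their medians were 38.3 in replicate 2 and 61.8 in replicate 3. The cytoplasmic ribosomal protein list had 5 of 85 (5.88%), the chemoreceptor list 15 of 230 (6.52%) and the cuticle protein list 4 of 95 (4.21%). Genes of these last 3 lists have short introns, with medians of 0.095, 0.0665 and 0.003 kb, whereas the axon guidance list has a median of 37.4 kb.

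The strongest members lay at genes of many kinds. In introns the 10 strongest included those at HGTX (121.4 in the pooled list, 61.1 in replicate 2 and 62.9 in replicate 3), nuf, Cyp9f2, EcR, CG7627, rdx, tay, NK7.1 and COX7AL2. In intergenic DNA they were nearest to Gnf1 (121.7, 50.5 and 78.1), Ebp, CG42807, fz, bard, comm2 (121.2, 21.8 and 99.7), ems (the head gap gene, 121.2, 43.7 and 76.2), CheA75a, CG15283 and Glut3. All 20 had pooled signals between 120.6 and 121.7, just under the IDR set.

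Members also formed dense stretches, named here after their values were seen. The 50 kb stretch with the most members, 23, ran over 2L:1407246-1456485 at CG43401, CG43402 and robo2, which encodes a receptor for Slit, with 5 members in introns, 18 in intergenic DNA and 4 IDR distal peaks. The next, with 22 members, all intergenic, ran over 3L:15731029-15779910 next to comm, which controls the amount of Robo receptor on axons, and held no IDR distal peak. A stretch over 2L:14417982-14464009 near CG15283, Cpr35B and Pburs held 21, all intergenic, and one over 2R:15887931-15922761 held 19, of which 18 were in introns of sli. The median signals of these 23 members were 65.9 in the pooled list, 27.9 in replicate 2 and 40.1 in replicate 3, close to the medians of all members.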

How the data were processed

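Per the file lists deposited with the samples, the authors called peaks on each replicate and on both pooled against 1 control alignment (build dm6) and took the IDR set from those 3 lists. The signal of a deposited peak is the peak caller's value against the control, with no stated scale. The deposited −log10 q value served only as a description, and the deposited offset (another value, in bp) gave the summit. Which aligner, peak caller and IDR threshold were used is not given in the sources used here. Each list holds 30000 peaks, a list length and not a depth.

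Summits were placed with Ensembl release 115, with promoters and exons taking precedence over introns and introns over intergenic DNA. Sequences came from the RefSeq copy of Release 6. Summit windows (50 bp to each side) were searched for all 6-mers and 37 consensus sequences. Groups of peaks were compared by two-sided Fisher's exact tests and summit with flank by exact tests of discordant pairs, adjusted by Benjamini-Hochberg within each family and called under 0.05; stratified tests were Mantel-Haenszel. Peaks are not replicates of a condition, and these p-values compare groups of peaks. Named genes are the 15 with the most members, those of the 10 strongest members of each class and up to 3 per gene list; 3 list entries had no match. The members, lists and tests were chosen with earlier results of these data known. Gene lists were described by counts. The window of 1 member is not reported here. The code was tested on simulated data. Alternatives covered the match distance, TSS distance, single replicates, clusters, window width, GC content, rank and comparison peaks. Columns of other samples numbered 0. SciPy 1.17.1, NumPy 2.4.6 and pandas 2.3.3 ran under Python 3.11.15, and matplotlib 3.10.9 drew the figures.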

Additional observations from a re-analysis of the deposited data

How the results depend on the processing

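The depth is unknown, both replicates share 1 control, and 2 libraries of 1 fly line are the whole design, so no value here has an error across animals. The number of members, 4891, was 2949 within 50 bp. With only replicate 2 used for the match it was 8638, and with only replicate 3 used it was 10608. The number of 6-mers called, 5, was 2 within 50 bp, 12 within 200 bp and 2 over 1000 bp from a TSS. With only replicate 2 used, and likewise with only replicate 3 used, it was 0. It was 10 with 1 peak per cluster, 1 with 30 bp and 41 with 100 bp to each side. Stratified on GC content it was 8, stratified on pooled rank 1, and against peaks that lack a summit in both replicates 14. The number of consensus sequences called against the others, 5, was 2 within 50 bp and 2 over 1000 bp from a TSS. With only replicate 2 used it was 0, and with only replicate 3 used it was 4 (3 of them higher in members). It was 3 with 30 bp to each side, 0 stratified on pooled rank and 3 against peaks that lack a summit in both replicates. Against the members' own flank, 5 became 3 within 50 bp and 9 with 100 bp to each side. With only replicate 2 used the number was 6, and with only replicate 3 used it was 8. Against the IDR distal peaks, 3 became 6 with 100 bp to each side. Over 1000 bp from a TSS, and likewise stratified on GC content, it was 4. In each of these settings 1 call was higher in members. The number was 4 with only replicate 2 used, and likewise with only replicate 3 used. Arms called, 0, were 1 within 200 bp and 1 stratified on pooled rank. The odds ratio of the intron share, 1.07, was 0.995 without replicate 3 and 1.06 without replicate 2, and 1.12 stratified on pooled rank. That of first introns, 1.14, was 1.10 within 50 bp (p = 0.0609 by Fisher's exact test) and 0.92 stratified on pooled rank. That of GAGAG, 1.17, was 0.988 stratified on pooled rank. The homeodomain and forkhead differences from the IDR distal peaks and from the flank passed in all 9 alternatives each. The causes were not tested. No paired analysis was possible because the samples form 1 group.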

Other observations

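The forkhead and homeodomain sequences stood together in 19 member windows (0.388%, interval 0.234 to 0.606), in 10 windows of the other weaker distal peaks (0.0836%, 0.0401 to 0.154) and in 8 of the IDR distal peaks (0.767%, 0.332 to 1.51). These counts were not compared with those that the share of each sequence alone would give. They therefore do not show that the 2 sequences favour each other in members. At least 1 of the 5 called sequences stood in 30.9% of members, 26.0% of the others and 41.9% of the IDR distal peaks. The 5 were chosen because each was more frequent in members than in these same others. The higher share in members than in the others follows from that choice. These shares were not tested and not stratified on pooled rank.

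Outside distal DNA, the share of weaker peaks found in both replicates was 34.9% at promoters (2497 of 7164), 30.7% in other transcribed DNA, 29.5% in 5′ UTRs (93 of 315), 17.8% in 3′ UTRs and 12.0% in coding exons (249 of 2077). In the distal classes it was 29.5% in introns and 28.1% in intergenic DNA. Genes with members in intergenic DNA alone included CheA75a, with 15, noc, with 14, and vvl, with 11. Their introns total 0.003, 0.281 and 0.0 kb, which leaves almost no room for intronic members.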
